A study of Mus musculus and Homo sapiens with 176 samples.

Results

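Hook1, Pip5kl1, Frmpd3 and Kalrn are 4 mouse genes whose nuclear RNA was high in prefrontal NeuN+ nuclei and low in prefrontal NeuN- nuclei. They are 4 of the 24854 features in each RNA table of the series, matched by gene symbol, 1 feature each. They were picked for that prefrontal contrast, so their prefrontal NeuN+ and NeuN- values chose them and are given below as a description, without a test. The values that chose them are 13.9 FPKM or more in each prefrontal NeuN+ library and 1.59 FPKM or less in each prefrontal NeuN- library, where FPKM is fragments relative to transcript length and to all mapped fragments. The rule used no cerebellar library.

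The study compared neuronal and glial nuclei of mouse cerebellum and prefrontal cortex. The RNA libraries come from 1 C57BL/6 mouse, labelled mouse 3, aged 8 to 10 weeks, for which the labels name no genotype, sex or treatment. They form 4 groups with 2 libraries each: NeuN+ and NeuN- nuclei of prefrontal cortex, and NeuN+ and NeuN- nuclei of cerebellum. NeuN is the neuronal nuclear antigen stained for sorting; some neurons, Purkinje cells among them, stain weakly or not at all. A further limit is that nothing says the replicates are separate tissue pieces, so p-values measure the spread between libraries of 1 animal, which may be technical.

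The 4 genes act in different parts of cell biology. Hook1 encodes an adaptor that ties endosomal cargo to the dynein motor on microtubules, the route by which neurons carry organelles back from axons and within dendrites. Pip5kl1 encodes a relative of the type I phosphatidylinositol phosphate kinases, which make the membrane lipid PI(4,5)P2, and is known for binding such kinases more than for activity of its own. Frmpd3 encodes a protein with FERM and PDZ domains, modules that bind membranes and the tails of membrane proteins; its relative Frmpd4 is a postsynaptic scaffold. Kalrn encodes kalirin, a guanine nucleotide exchange factor that switches on small GTPases such as Rac and is best known for shaping dendritic spines of cortical neurons.

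The promoters of the 4 genes are shown because the genes share a prefrontal pattern and the letters let a reader see whether they share sequence. All 4 symbols matched the RefSeq promoter table of GRCm38.p6, and each line gives the 250 bases before the most upstream start in that table, 5′ to 3′ on the gene's strand. Capitals mark matches to 5 motifs searched on both strands: the E-box CAGNTG, the CRE core TGACG, the AP-1 site TGANTCA, the GC box GGGCGG and the TATA box TATAAA. The windows are Hook1 at chr4:95967129-95967378 (+), Pip5kl1 at chr2:32575468-32575717 (+), Frmpd3 at chrX:140342013-140342262 (+) and Kalrn at chr16:34514028-34514277 (-), on GRCm38.p6, a later build than that of the expression tables.
Hook1: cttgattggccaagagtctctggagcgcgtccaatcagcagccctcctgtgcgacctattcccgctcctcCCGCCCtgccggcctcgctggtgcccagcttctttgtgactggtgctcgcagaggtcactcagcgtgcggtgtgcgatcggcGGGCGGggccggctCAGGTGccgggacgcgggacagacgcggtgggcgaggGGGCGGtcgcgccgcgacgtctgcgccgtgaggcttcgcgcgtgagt
Pip5kl1: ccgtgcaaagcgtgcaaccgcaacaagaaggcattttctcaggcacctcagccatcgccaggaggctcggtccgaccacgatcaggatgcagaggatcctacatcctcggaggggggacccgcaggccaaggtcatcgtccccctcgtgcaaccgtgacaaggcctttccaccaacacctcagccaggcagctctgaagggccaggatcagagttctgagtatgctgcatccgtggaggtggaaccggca
Frmpd3: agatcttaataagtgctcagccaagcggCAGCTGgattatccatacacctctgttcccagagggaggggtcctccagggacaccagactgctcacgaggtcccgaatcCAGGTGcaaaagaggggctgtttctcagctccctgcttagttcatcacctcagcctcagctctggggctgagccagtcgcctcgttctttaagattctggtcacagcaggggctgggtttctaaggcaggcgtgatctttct
Kalrn: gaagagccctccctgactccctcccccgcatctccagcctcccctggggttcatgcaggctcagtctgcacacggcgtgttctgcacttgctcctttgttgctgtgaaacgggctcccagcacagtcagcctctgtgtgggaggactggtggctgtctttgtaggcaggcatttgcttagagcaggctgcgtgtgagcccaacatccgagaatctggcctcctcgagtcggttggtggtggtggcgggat

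The 4 windows were unlike each other in base composition. Hook1 had a GC content of 70.4% with 32 CpG dinucleotides, Pip5kl1 60.8% with 14, Kalrn 60.8% with 9 and Frmpd3 55.2% with 6, where the median promoter of 27025 genes had 52.0% and 6. Hook1 held 3 GC boxes and 1 E-box, and Frmpd3 held 2 E-boxes. The Pip5kl1 and Kalrn windows held 0 matches to the 5 motifs. Of all 27025 promoters, 44.5% held an E-box, 33.0% a GC box, 17.8% a CRE core, 13.0% a TATA box and 6.85% an AP-1 site. Within the 4 windows shown, no matches to different motifs overlapped. No motif was found in all 4 windows. A match describes letters only, and the table lists 3 starts for Pip5kl1 and 1 for each of the others, none of them tied here to the starts used in these nuclei.

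Across all features, FPKM summed to between 289350 and 426851 per library, and between 11256 and 12494 features reached 1 FPKM. Absolute sequencing depth is unknown. Over the 14376 features kept for testing, Spearman correlations were 0.972 to 0.977 within groups and 0.680 to 0.808 between groups, across features, which are not independent replicates. Defining markers fixed for the sorted cells were summed per library as scaled FPKM, that is, FPKM multiplied by a library scaling factor. The 8 oligodendrocyte markers summed to 88.3 to 94.4 in prefrontal NeuN+ and 1889 to 1904 in prefrontal NeuN-, and to 212 to 218 and 1605 to 1629 in the cerebellar gates. The 10 general neuronal markers summed to 1525 to 1540 in prefrontal NeuN+, 1927 to 2054 in prefrontal NeuN-, 1339 to 1346 in cerebellar NeuN+ and 726 to 738 in cerebellar NeuN-, so neuronal RNA was also present in both NeuN- gates. The NeuN- libraries are therefore named by gate and not as glia.

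Hook1, the dynein adaptor gene (chromosome 4, 95634070 to 95690965, mm9), had the highest level of the 4 genes and was present in both cerebellar gates. It was listed at 86.4 and 88.3 FPKM in NeuN+ and 0.325 and 0.463 in NeuN- of prefrontal cortex, and at 28.0 and 28.1 in NeuN+ and 12.4 and 11.9 in NeuN- of cerebellum. Every neighbouring pair of groups in the order prefrontal NeuN+, cerebellar NeuN+, cerebellar NeuN-, prefrontal NeuN- was separated by more than the spread between libraries. The lowest group was thus prefrontal NeuN-, whose scaled mean of 0.350 ± 0.0913 (SD, n = 2) was 0.383% of the prefrontal NeuN+ mean. Cerebellar NeuN- nuclei, the other gate meant to hold few neurons, stood at 12.6 ± 0.445 (SD, n = 2), 36.0 times the level of prefrontal NeuN-. In prefrontal NeuN+ the level was 3.14 times that of cerebellar NeuN+. Hook1 was 637th of the 14376 features by its prefrontal NeuN+ level.

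The Hook1 locus overlaps 1 other feature, 9530080O11Rik (chromosome 4, 95626402 to 95634346, mm9), over 277 bases at the start of the Hook1 feature. Whether counting used strand is not given in the sources used, so fragments of the shared bases cannot be told apart. 9530080O11Rik was listed at 2.32 and 3.77 FPKM in NeuN+ and 0.635 and 0.965 in NeuN- of prefrontal cortex, and at 0.140 and 0.207 in NeuN+ and 0.101 and 0.0826 in NeuN- of cerebellum. It was highest in the same group as Hook1, but in prefrontal NeuN- it stood above Hook1 and in the cerebellum far below it.

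Pip5kl1, the kinase-like gene (chromosome 2, 32431339 to 32439299, mm9), was the only member with more RNA in cerebellar NeuN- than in cerebellar NeuN+ at levels above 1 FPKM. It was listed at 16.1 and 13.9 FPKM in NeuN+ and 0 and 0.0420 in NeuN- of prefrontal cortex, and at 3.55 and 4.28 in NeuN+ and 7.80 and 9.09 in NeuN- of cerebellum. No neighbouring groups overlapped in the order prefrontal NeuN+, cerebellar NeuN-, cerebellar NeuN+, prefrontal NeuN-. Relative to the prefrontal NeuN+ mean of 15.7 ± 1.58 scaled FPKM (SD, n = 2), cerebellar NeuN- held 55.8% and cerebellar NeuN+ 25.9%. No fold against prefrontal NeuN- is given, since the limits of its value above 0 correspond to about 1 fragment. The feature overlaps no other, and the nearest, the mannosyltransferase subunit gene Dpm2, lies 2248 bases away and was listed at 85.4 to 148 FPKM in all 8 libraries.

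Frmpd3, the FERM and PDZ gene (chromosome X, 136902033 to 136929059, mm9), came closest to being confined to prefrontal NeuN+ over all 4 groups. It was listed at 20.6 and 18.7 FPKM in prefrontal NeuN+, at 0 in both prefrontal NeuN- libraries, and in cerebellum at 0.198 and 0.176 in NeuN+ and 0.483 and 0.264 in NeuN-. The cerebellar values do not overlap between the gates, but their deposited confidence limits do, at 0 to 0.396 in NeuN+ and 0.0485 to 0.806 in NeuN-. Read as limits of a Poisson count, they correspond to roughly 4 fragments in each cerebellar NeuN+ library and to 9 and 6 in cerebellar NeuN-. Scaled means in the cerebellar gates were 0.194 ± 0.0173 in NeuN+ and 0.388 ± 0.163 in NeuN- (SD, n = 2), 0.944% and 1.89% of the prefrontal NeuN+ mean. Frmpd3 was kept for testing only through its prefrontal NeuN+ libraries. No feature overlaps it; the nearest, Mir3475, lies 56482 bases away and was listed at 0 throughout.

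Kalrn, the exchange factor gene (chromosome 16, 33969159 to 34514113, mm9), was low in both cerebellar gates and was the only member that was not under 1 FPKM in prefrontal NeuN-. It was listed at 39.8 and 40.7 FPKM in NeuN+ and 1.59 and 1.37 in NeuN- of prefrontal cortex, and at 0.439 and 0.508 in NeuN+ and 0.133 and 0.110 in NeuN- of cerebellum. The 4 groups do not overlap, and this order differs from that of the other 3 genes, in which prefrontal NeuN- is lowest. The scaled mean of prefrontal NeuN-, 1.31 ± 0.120 (SD, n = 2), was 3.12% of the prefrontal NeuN+ mean of 42.1 ± 0.638, and 2.67 times that of cerebellar NeuN+. Cerebellar NeuN+, at 0.492 ± 0.0475 (SD, n = 2), held 1.17% of the prefrontal NeuN+ mean and cerebellar NeuN- 0.299%. Its 544955-base span overlaps no other feature, and the nearest, the pyrimidine synthesis gene Umps, lies 2070 bases away at 1.31 to 8.65 FPKM. "Near zero" in prefrontal NeuN- thus covers a listed 0 for Frmpd3, at most 0.463 FPKM for Hook1 and up to 1.59 FPKM for Kalrn.

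**Figure D1:**
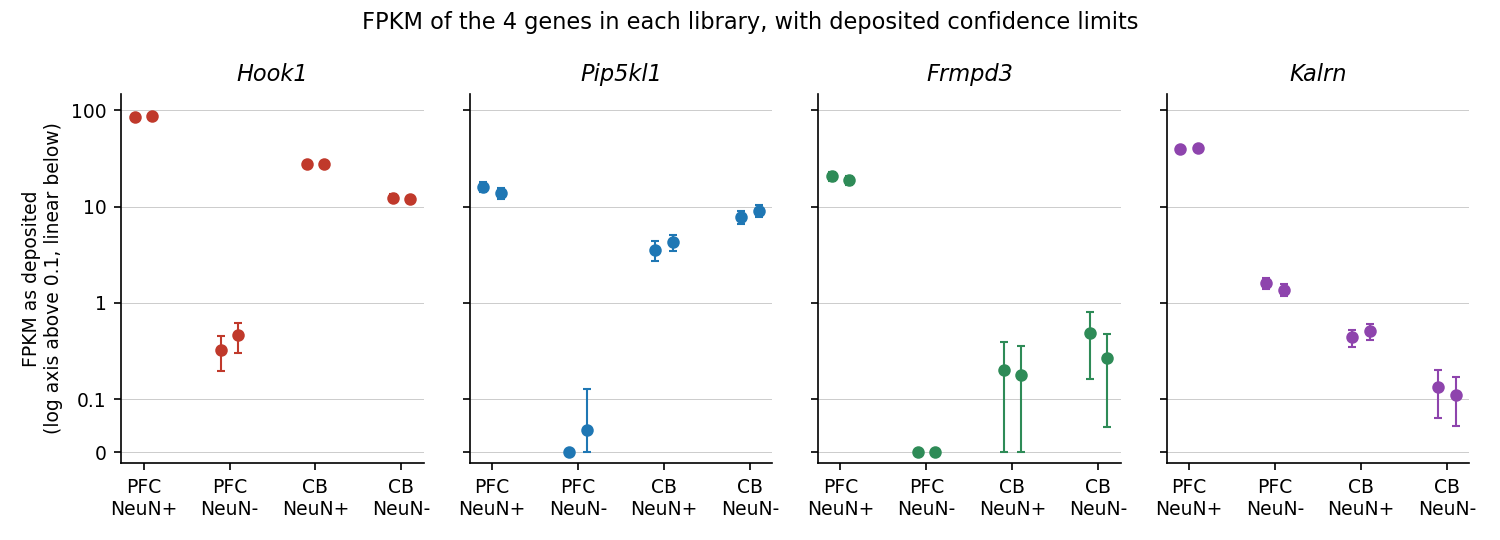
FPKM as deposited of Hook1, Pip5kl1, Frmpd3 and Kalrn in each of the 8 libraries (points) with the deposited confidence limits (bars), for NeuN+ and NeuN- nuclei of prefrontal cortex (PFC) and cerebellum (CB); the axis is logarithmic above 0.1 and linear below. All 4 genes peak in PFC NeuN+; Hook1 and Pip5kl1 stay above 3 FPKM in both CB gates, while Frmpd3 and Kalrn stay under 0.6 FPKM there.

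The cerebellar comparison of NeuN+ with NeuN- nuclei asked whether genes picked in cortex separate the gates in a second region, and it is the only test reported for the 4 genes. Hook1 and Kalrn rose in cerebellar NeuN+ and Pip5kl1 fell, where 71.7% of all 14376 tested features were called in this comparison, 32.4% higher and 39.2% lower. With so many features called, these calls say nothing particular about the genes. Hook1 and Pip5kl1 reached 1 FPKM in every cerebellar library, whereas Kalrn and Frmpd3 were kept for testing through prefrontal libraries alone. For Frmpd3 those were the libraries it was chosen to be high in, so no call is read from its test.

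Hook1 was higher in cerebellar NeuN+ by 1.15 on the log2 scale of scaled FPKM + 1 (SE 0.0613, limma adjusted p = 7.0e-06), and its scaled mean was 2.31 times that of NeuN-. Every cerebellar NeuN+ library was above every cerebellar NeuN- library. Pip5kl1 fell by 0.95 on the log2 scale in cerebellar NeuN+ (SE 0.112, limma adjusted p = 2.8e-04), with a scaled mean in NeuN- 2.16 times that of NeuN+, and again the libraries did not overlap. Its cerebellar change thus passed in the direction opposite to its prefrontal difference. Kalrn was higher by 0.41 (SE 0.0718, limma adjusted p = 0.0021), a difference between 0.492 and 0.126 scaled FPKM, or 3.90 times without the pseudocount. The size of the Kalrn change depends on the pseudocount and scaling: it was 1.39 with a pseudocount of 0.1, 0.66 with 0.5 and 0.74 with quantile normalization, and it passed in each. The fitted Frmpd3 difference was -0.21 (SE 0.0972), at about 4 to 9 fragments a library. It was -0.69 with a pseudocount of 0.1, -0.33 without cerebellar NeuN- replicate 2 and 0.32 with quantile normalization, so no direction is given for it.

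**Figure D2:**
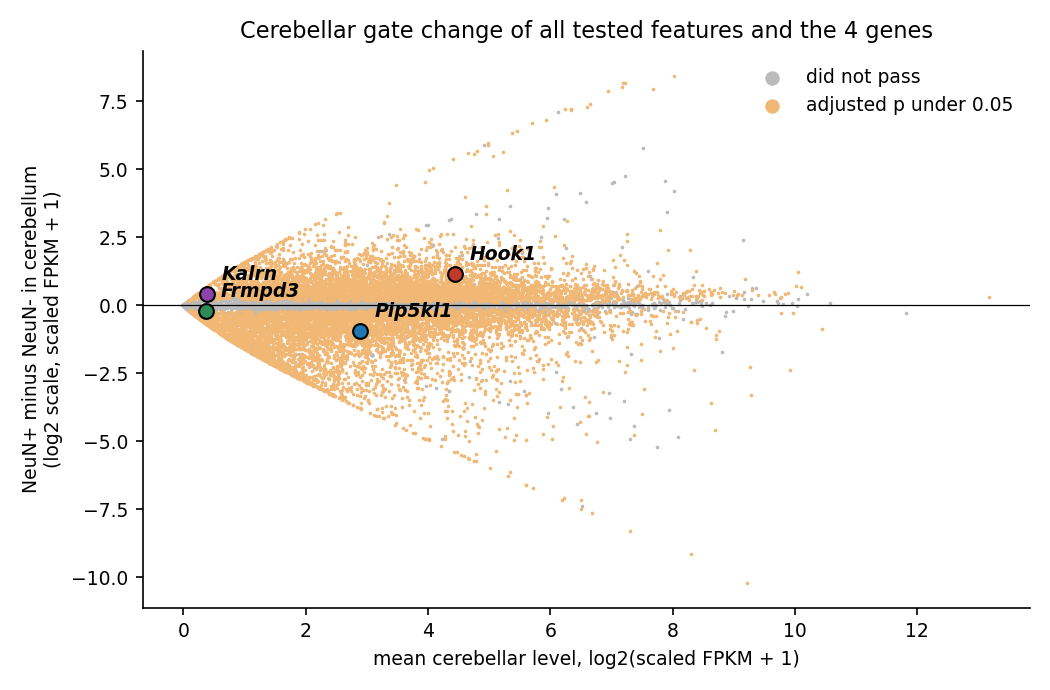
NeuN+ minus NeuN- in cerebellum on the log2 scale of scaled FPKM + 1 (vertical axis) against the mean cerebellar level on the same scale (horizontal axis) for the 14376 tested features, orange where the limma adjusted p was under 0.05 and grey otherwise, with the 4 genes marked. Hook1 lies at 1.15 and Pip5kl1 at -0.95 among well-measured features, while Kalrn (0.41) and Frmpd3 (-0.21) lie at the low end of the level axis, where the pseudocount narrows the range of change.

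Cell type markers also differed between the cerebellar gates, and their part in these changes was not tested. Of 9 granule neuron markers, 9 were higher in NeuN+, with sums of 1039 to 1040 scaled FPKM in NeuN+ and 299 to 303 in NeuN-. The 5 Purkinje cell markers summed to 484 to 492 in NeuN+ and 434 to 462 in NeuN-, with 2 higher, 0 lower and 3 not passing. All 7 astrocyte markers and all 8 oligodendrocyte markers were lower in NeuN+, the astrocyte markers summing to 81.1 to 86.5 against 726 to 732. The 8 GABA neuron markers had 0 higher, 3 lower and 5 not passing and summed to 307 to 308 in NeuN+ and 470 to 481 in NeuN-. Prefrontal NeuN+ nuclei held more of the 8 cortical excitatory neuron markers than any other group, at 51.3 to 53.6, against 19.3 to 20.7 in prefrontal NeuN-, 5.51 to 5.53 in cerebellar NeuN+ and 2.36 to 2.47 in cerebellar NeuN-, and Fezf2 and Tbr1 were at 0 in every cerebellar library. Other neuronal lists did not share that order in prefrontal cortex. Of the 10 general neuronal markers, 3 were higher in prefrontal NeuN+, 5 lower and 2 not passing. The 8 GABA neuron markers had 5 higher, 1 lower and 2 not passing there, but summed to 930 to 1011 in prefrontal NeuN+ and 1256 to 1352 in prefrontal NeuN-. In bulk nuclei, fewer nuclei of a type and less RNA per nucleus cannot be told apart.

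The 4 genes did not share 1 pattern over the 4 groups. The distance between a pair of genes was taken as the root mean square difference of their log2(scaled FPKM + 1) profiles over the 8 libraries, each centred on its own mean, as a description only. Frmpd3 and Kalrn were closest at 0.597, Hook1 and Pip5kl1 stood at 1.05 and Pip5kl1 and Frmpd3 at 1.35, while Hook1 and Kalrn were farthest apart at 2.03. Within Hook1 and Pip5kl1 the cerebellum keeps a sizeable level, and within Frmpd3 and Kalrn it does not.

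By the same measure, the 5 features most like each gene were taken from 12733 features kept for testing with a reliable value in all libraries. Symbols of predicted genes, clones, microRNAs and small nucleolar RNAs were left out, as were those made of C followed by digits. Of these 20 places, 19 are given here. The nearest to Hook1 were the noncoding RNAs Snhg11 (distance 0.469) and Meg3 (0.620), the obligatory NMDA receptor subunit gene Grin1 (0.758), the imprinted noncoding RNA Ipw (0.778) and the ephrin receptor gene Epha10 (0.982). The measure compares shape and not level. Snhg11, Meg3 and Ipw kept 20.2, 10.5 and 19.9 scaled FPKM in prefrontal NeuN-, where Hook1 stood at 0.350. Grin1 had scaled means of 41.3 ± 3.06 in prefrontal NeuN+, 1.64 ± 0.280 in prefrontal NeuN-, 30.8 ± 1.25 in cerebellar NeuN+ and 10.6 ± 0.719 in cerebellar NeuN- (SD, n = 2), the same order as Hook1.

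Pip5kl1 was most like Spx, which encodes the neuropeptide spexin (0.485), Epha10 (0.503), the ciliary rootlet gene Crocc (0.584), the FERM domain gene Frmd3 (0.613) and the spindle gene Spag5 (0.620). Of these, Crocc, Frmd3 and Spag5 had a higher mean in cerebellar NeuN- than in cerebellar NeuN+ by more than the spread, as Pip5kl1 did. Crocc stood at 6.41 ± 0.0621 against 5.87 ± 0.378, Frmd3 at 11.4 ± 0.511 against 2.30 ± 0.248 and Spag5 at 16.6 ± 0.0894 against 7.13 ± 0.250 scaled FPKM (SD, n = 2). In Frmd3 the cerebellar NeuN- level even exceeded the prefrontal NeuN+ level of 8.38 ± 0.350.

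Genes most like Frmpd3 included Rgs11, a regulator of G-protein signalling (0.309), the potassium channel gene Kcnh4 (0.322), the active zone gene Erc2 (0.458) and the cadherin gene Cdh9 (0.516). Rgs11 kept 4.16 scaled FPKM in prefrontal NeuN-, 5.36 in cerebellar NeuN+ and 4.74 in cerebellar NeuN-. Frmpd3 stood at 0, 0.194 and 0.388 in these groups. Kcnh4 had scaled means of 11.03 ± 0.535 in prefrontal NeuN+ and 0.0152 ± 0.0216 in cerebellar NeuN+ (SD, n = 2) and was listed at 0 in the other groups. Kalrn was most like the potassium channel gene Kcnh7 (0.172), the noncoding RNA Miat (0.303), Cdh9 (0.392), Ankrd33b (0.507) and Dlk2 (0.523). Kcnh7 had the smallest distance of all, with 30.1 ± 1.59 scaled FPKM in prefrontal NeuN+, 0.987 ± 0.0984 in prefrontal NeuN- (SD, n = 2) and a listed 0 in all 4 cerebellar libraries. Miat kept 3.14 ± 0.138 in prefrontal NeuN- beside 50.4 ± 2.39 in prefrontal NeuN+.

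**Figure D3:**
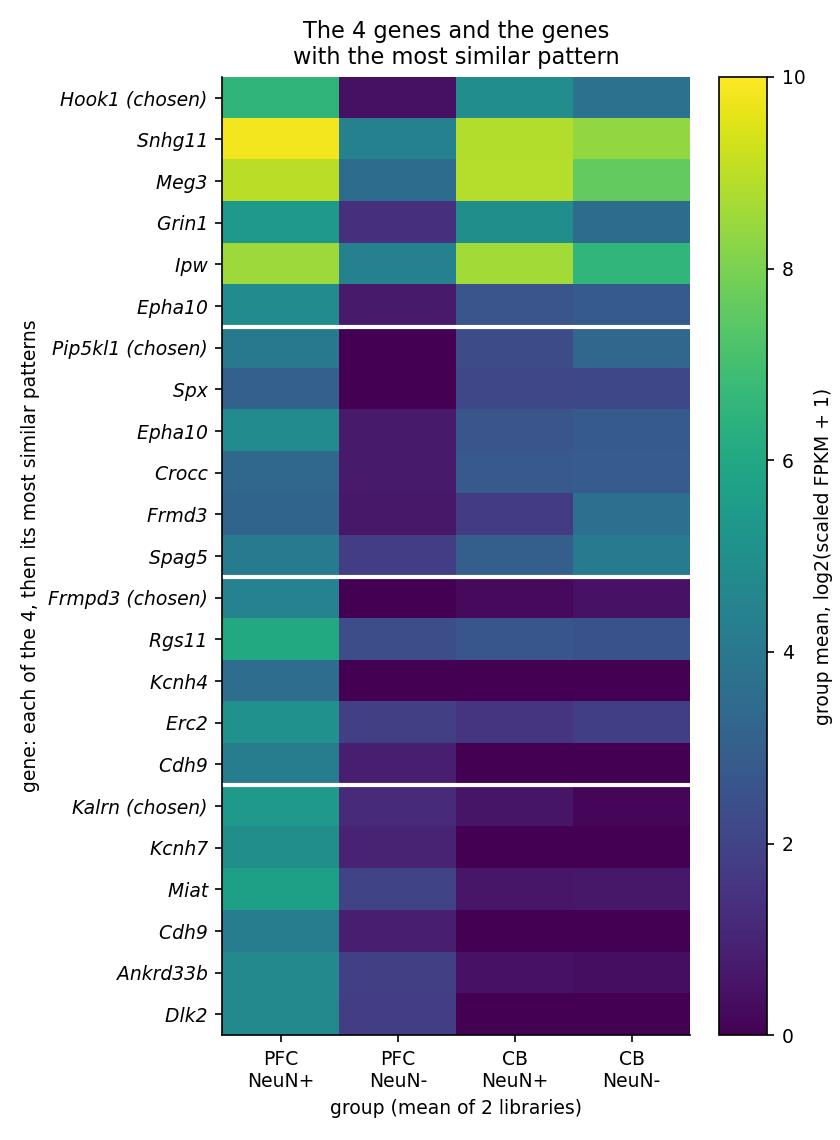
Group means of log2(scaled FPKM + 1) over 2 libraries (colour) for each of the 4 genes, marked as chosen, and the genes with the most similar pattern (4 for Frmpd3, 5 for each of the others), in NeuN+ and NeuN- nuclei of prefrontal cortex (PFC) and cerebellum (CB). The neighbours of Hook1 and Pip5kl1 keep signal in both CB columns, while Kcnh7, Cdh9 and Dlk2 near Kalrn are at 0 there.

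A cut on the prefrontal libraries, set after values were seen, placed the genes among others of the same pattern. Of the features searched for likeness, with the same symbols left out, 4654 had at least 10 scaled FPKM in both prefrontal NeuN+ libraries. Of these, 15 were under 1 in both prefrontal NeuN- libraries, and Hook1, Pip5kl1 and Frmpd3 were among them. Kalrn lay outside, at 1.40 and 1.23 scaled FPKM in prefrontal NeuN-. Of the 15, 6 had at least 1 scaled FPKM in all 4 cerebellar libraries (Hook1, Pip5kl1, Epha10, the NMDA receptor subunit gene Grin2a, the heparan sulfate enzyme gene Ndst3 and the thioesterase gene Acot3), and 5 were under 1 in all of them (among them Frmpd3, Cdh9, Kcnh4 and the contactin gene Cntn5). The other 4 were mixed: the collagen gene Col6a1 and Fnbp1l reached 1 in NeuN- but not in NeuN+, Retn, which encodes resistin, reached it in NeuN+ but not in NeuN-, and the small RNA AF357425 was uneven between libraries. Ndst3 was higher in cerebellar NeuN+ (35.1 scaled FPKM) than in prefrontal NeuN+ (12.8). Low signal in prefrontal NeuN- did not, therefore, go with 1 cerebellar pattern.

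The relatives of each gene were compared to see whether the prefrontal pattern ran through the family. Of the 8 relatives tested, those that rose in prefrontal NeuN+ were all above 1 FPKM in prefrontal NeuN-, the lowest value being 1.42 FPKM for Pip5k1b. Kalrn was itself above 1 FPKM there, at 1.59 and 1.37, so this limit does not set the relatives apart from Kalrn. Hook2, another Hook adaptor gene, was listed at 19.8 and 21.0 FPKM in NeuN+ and 7.67 and 7.29 in NeuN- of prefrontal cortex, and at 7.73 and 9.72 in NeuN+ and 11.3 and 10.9 in NeuN- of cerebellum. It was higher in prefrontal NeuN+ by 1.55 (SE 0.0958, limma adjusted p = 1.4e-05) and lower in cerebellar NeuN+ by a log2 change of -0.32 (SE 0.0958, limma adjusted p = 0.0212). The cerebellar call was lost with no filter on low values (limma adjusted p = 0.0574), in a fit of the 4 cerebellar libraries alone (limma adjusted p = 0.0900), and without cerebellar NeuN+ replicate 1 (-0.18, limma adjusted p = 0.0686), cerebellar NeuN- replicate 1 (-0.29, limma adjusted p = 0.0974) or cerebellar NeuN- replicate 2 (-0.35, limma adjusted p = 0.0620). The Hook2 gate changes differed between the regions by -1.87 (SE 0.135, limma adjusted p = 4.5e-05), and by -2.06 to -1.65 over 16 alternatives, where 70.1% of all features passed this test, 37.0% as lower. Hook3 was lower in NeuN+ in both regions, at 5.08 and 4.84 FPKM against 8.33 and 8.92 in prefrontal cortex and at 5.32 and 5.46 against 8.73 and 8.65 in cerebellum.

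The active type I kinases next to Pip5kl1 in the family were higher in NeuN+ in both regions. Pip5k1c, the main synaptic form, was listed at 33.9 and 31.5 FPKM in NeuN+ and 19.0 and 18.5 in NeuN- of prefrontal cortex, and at 41.0 and 42.7 in NeuN+ and 18.4 and 19.3 in NeuN- of cerebellum. Its log2 change was 0.99 in prefrontal cortex (SE 0.0521, limma adjusted p = 6.7e-06) and 1.11 in cerebellum (SE 0.0521, limma adjusted p = 4.1e-06). Pip5k1a rose by 0.79 and 0.97 and Pip5k1b by 0.97 and 0.63 in the same order (SE 0.0853 and 0.103, largest limma adjusted p = 0.0015). Pip5kl1, with its fall in cerebellar NeuN+, went the other way from all 3 in that region. Pip5k1b had its highest level in cerebellar NeuN+, at 10.1 and 11.3 FPKM, against 3.59 and 3.65 in prefrontal NeuN+.

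Frmpd4, the postsynaptic scaffold related to Frmpd3, was listed at 7.0 and 6.38 FPKM in NeuN+ and 2.70 and 3.02 in NeuN- of prefrontal cortex, and at 1.70 and 1.74 in NeuN+ and 4.79 and 5.31 in NeuN- of cerebellum. It was higher in NeuN+ by 1.18 in prefrontal cortex (SE 0.0851, limma adjusted p = 2.8e-05) and lower by a log2 change of -1.16 in cerebellum (SE 0.0851, limma adjusted p = 2.8e-05), and the difference between the regions was -2.34 (SE 0.120, limma adjusted p = 1.3e-05). Frmpd1 was lower in NeuN+ in both regions, at 0.0640 and 0.0934 FPKM against 1.21 and 1.11 in prefrontal cortex and at 0.206 and 0.206 against 2.99 and 3.13 in cerebellum. On the scale of scaled FPKM + 1 its fall was larger in cerebellum by a log2 difference of -0.87 (SE 0.0844, limma adjusted p = 1.5e-04). The size of that difference depends on the pseudocount, since scaled means were 0.0824 against 1.03 in prefrontal cortex and 0.214 against 3.17 in cerebellum. Prefrontal NeuN+ values correspond to about 4 and 6 fragments.

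Trio, the closest relative of Kalrn and also an exchange factor for Rac, was present in every group and higher in cerebellum. It was listed at 5.39 and 5.17 FPKM in NeuN+ and 3.43 and 3.51 in NeuN- of prefrontal cortex, and at 8.01 and 8.67 in NeuN+ and 8.31 and 7.59 in NeuN- of cerebellum. It was higher in prefrontal NeuN+ by 0.68 (SE 0.0723, limma adjusted p = 1.8e-04). In cerebellum the gates overlapped, with a log2 difference of 0.06 (SE 0.0723, limma adjusted p = 0.469). Among NeuN+ nuclei Trio was higher in cerebellum by 0.56 (SE 0.0723, limma adjusted p = 3.6e-04), in a comparison that called 77.2% of all features, 36.5% as higher and 40.7% as lower, whereas Kalrn stood at 1.17% of its prefrontal level there. In cerebellar NeuN+ the scaled mean of Trio was 8.66 ± 0.433 and that of Kalrn 0.492 ± 0.0475 (SD, n = 2), while in prefrontal NeuN+ Kalrn, at 42.1 ± 0.638, exceeded Trio at 5.53 ± 0.166.

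**Figure D4:**
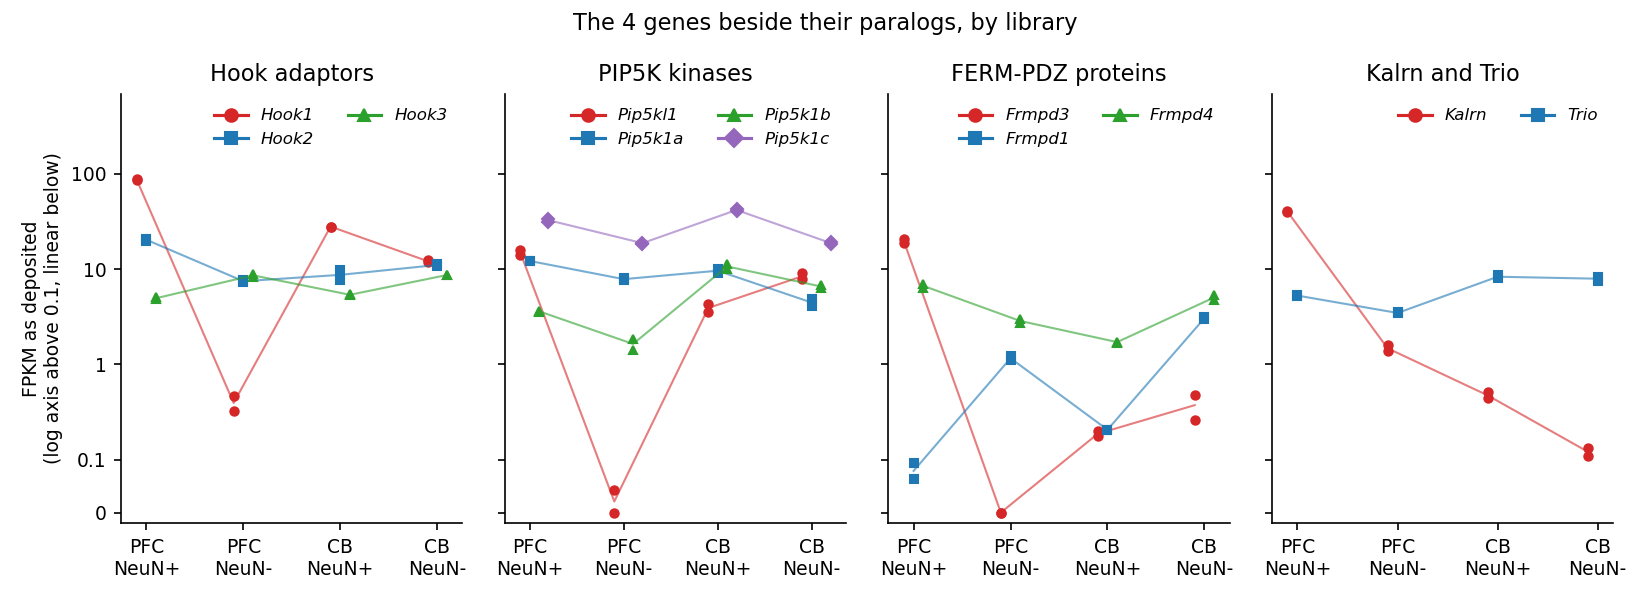
FPKM as deposited by library (points) of the 4 genes, in red, and their relatives, with lines through the group means to guide the eye between groups that have no order, in NeuN+ and NeuN- nuclei of prefrontal cortex (PFC) and cerebellum (CB); the axis is logarithmic above 0.1 and linear below. Frmpd1 runs from 0.0640 to 3.13 FPKM.

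The other genes of the pathways were counted in the same fit, from 5 lists that exclude the 4 genes. All folds of list genes are on the scale of scaled FPKM + 1, which understates changes of low genes. In cerebellum, 12 of 27 tested genes of the dynein list rose in NeuN+, 11 fell and 4 did not pass, with a median log2 change of 0.11 where that of all features was -0.04 and 71.7% of features were called, 32.4% higher and 39.2% lower. The motor subunit genes Dync1li1 (21.5 against 8.94 scaled FPKM, limma adjusted p = 2.9e-05) and Dync1i2 (34.3 against 15.6, limma adjusted p = 2.4e-04) rose in NeuN+. The motor subunit gene Dync1li2 fell there (18.0 against 26.0, limma adjusted p = 2.2e-04), so the motor genes did not all move as Hook1 did. The actin-binding Hook relative Ccdc88a, which encodes girdin, fell 13.1-fold on the scale of scaled FPKM + 1 (1.84 against 36.2, limma adjusted p = 1.4e-07), and the dynein regulator gene Nde1 fell 5.98-fold (1.99 against 16.8, limma adjusted p = 1.5e-06). In prefrontal cortex 18 rose, 4 fell and 5 did not pass, with a median of 0.34 against -0.01 over all features, where 72.6% of features were called, 35.0% higher and 37.6% lower. The adaptor gene Bicd1 rose 3.01-fold there (10.6 against 2.84, limma adjusted p = 3.7e-06) and the centrosomal adaptor gene Nin 3.13-fold (10.0 against 2.52, limma adjusted p = 7.5e-06), while Nde1 fell 22.5-fold (0.735 against 38.0, limma adjusted p = 2.1e-07).

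Among 33 phosphoinositide enzyme genes, 12 rose, 16 fell and 5 did not pass in cerebellum (median log2 change -0.09) and 18 rose, 11 fell and 4 did not pass in prefrontal cortex (median 0.30). Over all features, 71.7% were called in cerebellum (32.4% higher, 39.2% lower, median -0.04) and 72.6% in prefrontal cortex (35.0% higher, 37.6% lower, median -0.01). The lipid kinase gene Pi4kb rose 2.19-fold in cerebellar NeuN+ (7.87 against 3.06 scaled FPKM, limma adjusted p = 1.2e-05). The phospholipase genes Plch1 (0.106 against 7.41), Plcd1 (0.675 against 9.90) and Plce1 (0.283 against 5.40) fell there 7.61-fold, 6.50-fold and 5.00-fold on the scale of scaled FPKM + 1 (largest limma adjusted p = 1.4e-06). In prefrontal cortex Plcd4 fell 39.0-fold on that scale (0.434 in NeuN+ against 54.6 in NeuN-, limma adjusted p = 2.6e-07). Pi4ka rose 1.73-fold there (33.6 against 19.0, limma adjusted p = 9.5e-06).

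FERM, PDZ and postsynaptic scaffold genes numbered 28, of which 7 rose, 17 fell and 4 did not pass in cerebellum (median log2 change -0.50) and 21 rose and 7 fell in prefrontal cortex (median 0.50). The corresponding shares of all features were 32.4% higher and 39.2% lower of 71.7% called in cerebellum (median -0.04), and 35.0% higher and 37.6% lower of 72.6% called in prefrontal cortex (median -0.01). The postsynaptic density genes Dlgap1 (122 against 49.4 scaled FPKM, 2.45-fold, limma adjusted p = 1.3e-06) and Shank1 (17.96 against 8.20, 2.06-fold, limma adjusted p = 1.7e-04) rose in cerebellar NeuN+. On the scale of scaled FPKM + 1, Frmd3 fell 3.77-fold there (2.30 against 11.4, limma adjusted p = 2.6e-06). It rose 6.06-fold on that scale in prefrontal NeuN+ (8.38 against 0.548, limma adjusted p = 7.9e-07). Frmd4b fell in both regions, to 0.582 against 8.96 in cerebellum and 1.19 against 13.2 in prefrontal cortex (larger limma adjusted p = 4.1e-06). Shank1 and Grip1, which binds AMPA receptors, rose in prefrontal NeuN+ by 3.96-fold and 3.04-fold (larger limma adjusted p = 3.6e-05).

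Guanine nucleotide exchange factor genes for small GTPases, the class to which Kalrn belongs, numbered 29, of which 10 rose, 14 fell and 5 did not pass in cerebellum (median log2 change 0.00) and 18 rose, 8 fell and 3 did not pass in prefrontal cortex (median 0.52). These counts stand beside 71.7% of all features called in cerebellum, 32.4% higher and 39.2% lower (median -0.04), and 72.6% in prefrontal cortex, 35.0% higher and 37.6% lower (median -0.01). Arhgef7, which encodes the Pak-binding factor beta-Pix, rose in NeuN+ in both regions, 5.34-fold in cerebellum (43.8 against 7.38 scaled FPKM, limma adjusted p = 3.3e-07) and 2.82-fold in prefrontal cortex (12.5 against 3.79, limma adjusted p = 1.3e-06). The Rac activator gene Tiam1 rose 3.68-fold in cerebellar NeuN+ (14.9 against 3.34, limma adjusted p = 1.6e-06). Prex1 fell 12.8-fold there on the scale of scaled FPKM + 1 (0.877 against 22.9, limma adjusted p = 8.0e-07). In prefrontal NeuN+ the microtubule-bound factor gene Arhgef2 rose 2.76-fold (27.8 against 9.44, limma adjusted p = 4.9e-06), and Dock10 and Dock1 fell 9.45-fold and 6.41-fold (larger limma adjusted p = 5.2e-07).

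Genes for Rac-pathway GTPases and effectors and for proteins known to act with kalirin numbered 23, of which 7 rose, 10 fell and 6 did not pass in cerebellum (median log2 change -2.4e-04) and 11 rose, 7 fell and 5 did not pass in prefrontal cortex (median 0.23). The shares called in either direction are near those of all features, 71.7% in cerebellum (32.4% higher, 39.2% lower, median -0.04) and 72.6% in prefrontal cortex. By direction, with the scaling used, the prefrontal calls of this list were more often higher than lower, which those of all features were not (35.0% higher, 37.6% lower, median -0.01). With a common sum or quantile normalization the calls of all features were also more often higher, at 59.9% and 55.4% of calls. Grin2b, the NMDA receptor subunit to which kalirin is known to bind, rose 5.40-fold in prefrontal NeuN+ (34.8 against 5.65 scaled FPKM, limma adjusted p = 3.7e-06). It fell 4.90-fold in cerebellar NeuN+ on the scale of scaled FPKM + 1 (0.839 against 8.02, limma adjusted p = 4.5e-06). Ephb1, an ephrin receptor, rose 1.41-fold in cerebellar NeuN+ (8.58 against 5.78, limma adjusted p = 0.0014). The neurotrophin receptor gene Ntrk3 rose 2.62-fold in prefrontal NeuN+ (56.6 against 21.0, limma adjusted p = 7.1e-07). The GTPase gene Rhog, an activator of Rac, fell in NeuN+ in both regions, to 5.49 against 19.5 in cerebellum and 1.51 against 23.5 in prefrontal cortex (larger limma adjusted p = 7.8e-05).

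The list counts depend on how libraries are scaled. Across all features the higher share of prefrontal calls was 48.2% with the scaling used, 36.0% with FPKM as deposited, 59.9% with FPKM rescaled to a common sum and 55.4% with quantile normalization, and the median log2 change was -0.01, -0.19, 0.14 and 0.08. In prefrontal cortex the dynein list had 12 higher and 9 lower with FPKM as deposited and 22 higher and 3 lower with a common sum. All 5 lists kept a positive prefrontal median under the 4 scalings. In cerebellum the higher share was 45.2%, and 55.8% with quantile normalization, which also changed the median of the phosphoinositide list from -0.09 to 0.10 and that of the GTPase effector list to 0.09. Astrocyte and oligodendrocyte markers fell with NeuN+ in both regions beside these counts: all 7 astrocyte and all 8 oligodendrocyte markers were lower in each. Of 6 microglia markers tested, 6 were lower in prefrontal cortex, while 4 were lower and 2 did not pass in cerebellum. The part of these markers in the list counts was not tested.

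**Figure D5:**
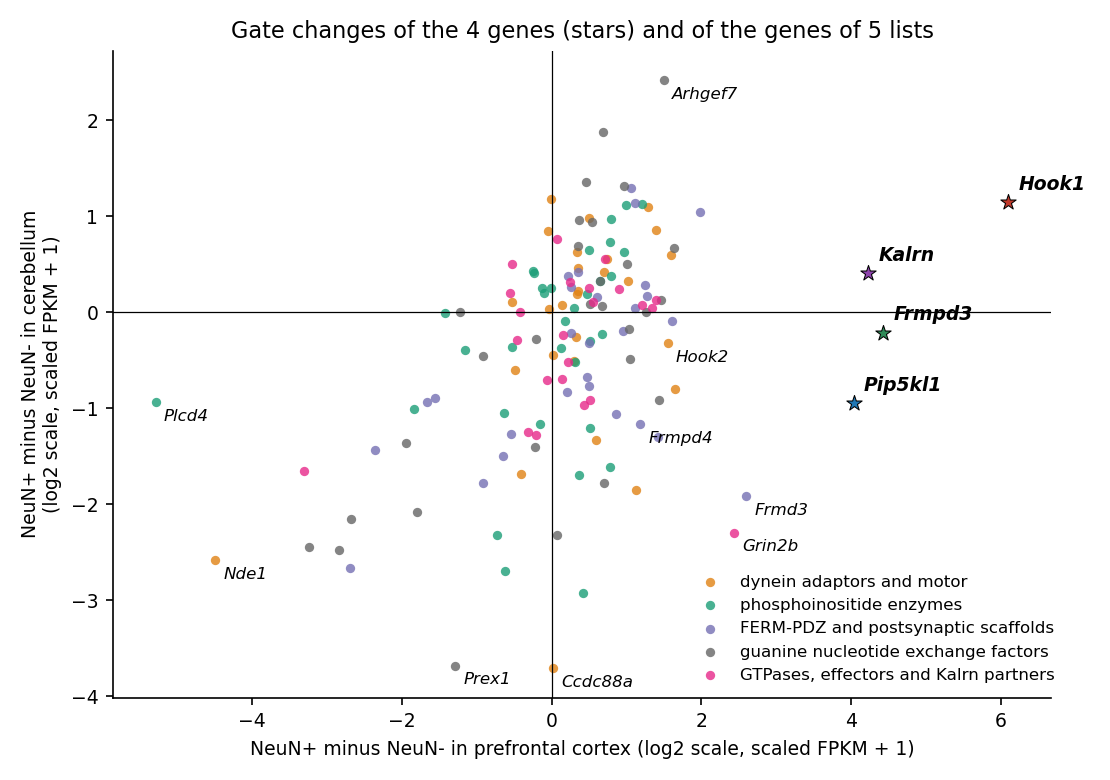
NeuN+ minus NeuN- in cerebellum (vertical axis) against the same difference in prefrontal cortex (horizontal axis), both on the log2 scale of scaled FPKM + 1, for the tested genes of 5 lists (dots, coloured by list) and the 4 genes (stars). The stars lie farthest to the right because they were chosen on the horizontal axis; vertically they run from -0.95 (Pip5kl1) to 1.15 (Hook1), inside the range of the lists.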

How the data were processed

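The deposited values are FPKM in 1 gene-level table per library, with confidence limits and a quantification status, per the file headers; FPKM divides by transcript length and mapped fragments before deposit, so no count test was run. Per the submitters' processing notes, the tools were TopHat2 2.1.1, Bowtie 1.1.1, Trim Galore 0.3.7 and Cufflinks, with mm9 for mouse and no roles stated; annotation and strand use are not given in the sources used. Nuclei were isolated through a sucrose cushion and sorted on NeuN, per the labels' protocols, which describe cerebellum only. Of the 24854 features, 14 values had a status other than OK, none of them of the 4 genes. Coordinates of features are those of the tables on mm9, and promoters are RefSeq sequences of GRCm38.p6, matched by symbol.

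FPKM were multiplied by median-of-ratios factors over 9109 features (0.878 to 1.05). The filter kept 14376 features that reached 1 FPKM in 2 or more libraries. Of the 4 genes, all were kept: Hook1 and Pip5kl1 reached 1 FPKM in 6 libraries, Kalrn in 4 and Frmpd3 in 2. The log2(scaled FPKM + 1) values of all 8 libraries were fitted with limma 3.58.1 in R 4.3.3, using group means and a variance trend (residual degrees of freedom, 4). Changes of low genes are understated by the pseudocount of 1. Tests were two-sided, with calls at a Benjamini-Hochberg adjusted p under 0.05 over all features. The script was tested on simulated data. The 4 genes were tested in cerebellum only, and no call is read for Frmpd3.

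The members and lists were chosen with earlier results of these data known. Named genes are the 4 genes, features overlapping them, their relatives, per list and gate comparison up to 3 called genes in each direction whose higher group averaged 5 scaled FPKM or more, and the 5 features most like each gene. Dync1li2 was named outside this rule. The test of the difference between the gate changes, the 10 and 1 FPKM limits on the prefrontal pattern, the list counts under other scalings and the reading of confidence limits as fragments were chosen after values were seen. Alternatives were other pseudocounts, filters and scalings, each library left out, a replicate block and fits of 4 libraries. A result for 1 feature similar to Frmpd3 is not reported here. The 114 mouse and 54 human chromatin samples were not analysed here.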

Additional observations from a re-analysis of the deposited data

Results flagged for a closer look

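Pip5kl1 was higher in NeuN+ in every prefrontal library and lower in NeuN+ in every cerebellar library, with a cerebellar log2 change of -0.95. Frmpd3 had the same order of listed values, with a cerebellar log2 difference of -0.21, but at about 4 to 9 fragments a library, with overlapping confidence limits and the opposite sign under quantile normalization (0.32), so no cerebellar direction is given for it. The difference between the regions was not tested for these genes, because they were chosen on the prefrontal values.

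For other genes the gate change differed between the regions by limma's test of the difference (cerebellum minus prefrontal cortex, log2), a test that 70.1% of all features passed, 33.1% higher and 37.0% lower. Among relatives of the 4 genes the difference was -1.87 for Hook2, -0.87 for Frmpd1, -2.34 for Frmpd4 and -0.62 for Trio. Frmpd1 was near 0 in prefrontal NeuN+, so the size of its difference depends on the pseudocount. Among the named list genes that passed in opposite directions in the 2 regions it was 1.03 for the ephrin receptor gene Ephb1. It was -4.73 for the NMDA receptor subunit gene Grin2b, -4.51 for Frmd3, -3.35 for the phospholipase gene Plch1, -2.44 for Nin and -2.35 for the exchange factor gene Plekhg5.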

How the results depend on the processing

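The cerebellar changes of Hook1 (1.11 to 1.21 over 17 alternatives) and Pip5kl1 (-1.09 to -0.80) kept their direction and passed throughout. The Kalrn change ran from 0.37 to 1.39 and also passed, but Kalrn was kept for testing through prefrontal libraries alone. With the filter of 5 FPKM those were the prefrontal NeuN+ libraries it was chosen to be high in. Its passes are therefore not read as support. The Frmpd3 change was -0.69 with a pseudocount of 0.1 and 0.32 with quantile normalization, and ran from -0.33 to -0.092 with 1 library left out. With 1 library left out, Hook1 ran from 1.11 to 1.18, Pip5kl1 from -1.05 to -0.84 and Kalrn from 0.37 to 0.44, and calls over all features from 9269 to 10302 in cerebellum. All 67 alternative counts of calls were within 1.5 times their main count. A replicate block called 10183 features in cerebellum, 10343 in prefrontal cortex, 11021 between the regions in NeuN+ and 9952 for the difference. Each group holds 1 library of each replicate number, so the block could change the p-values but not the size of a gate change. The values 1.15 for Hook1, -0.95 for Pip5kl1, -0.21 for Frmpd3 and 0.41 for Kalrn were thus fixed under it. The other filters, a prefrontal library left out and the fit of 4 libraries could not move the size of a cerebellar change either. Correlations of the deviations of same-numbered libraries were -0.0450 to 0.0342, so no shared deviation was seen. These values cannot tell whether same-numbered libraries were handled together.

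Among relatives and list genes, 1424 of the alternative values kept direction and side of the threshold, 9 newly passed, 13 no longer passed and 4 changed sign. The sign changed for the differences between regions of Hook3 with FPKM as deposited (0.091), and of Pip5k1a (-5.5e-04) and Pip5k1c (-0.086) with a common sum, and for Trio in cerebellum without NeuN- replicate 2 (-4.7e-04; up to 0.13 without NeuN- replicate 1); the cause was not tested. The fit of 4 libraries gives no difference between the regions. Absolute depth is unknown, which limits what can be said of Frmpd3 and Kalrn in cerebellum.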
